A study of Oncorhynchus mykiss with 60 samples.

Results

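Sections B and C are neighbouring slices of the rainbow trout (Oncorhynchus mykiss) embryo at 3 days post fertilization (dpf), a stage that the labels call mid-blastula. Each embryo was cut from the animal pole, where the cells lie, to the yolky vegetal side into 5 sections, A at the animal end and E at the vegetal end. The comparison uses 6 of the 55 libraries in the count table: 3 of section B and 3 of section C. They were chosen by their labels and paired by replicate number, since the sections of 1 number came from the same biological replicate. The embryos carried no labelled treatment, allele or strain, and the groups differ by section alone. Sections A, D and E of the same 3 replicates served for the estimate of the spread and are given as levels. Sections B and C at 1 dpf (early blastula, 3 libraries each) and at 0 hours post fertilization (0 hpf, 3 libraries each; the labels name both an egg and a zygote) are the earlier stages. Every library was made from 30 ng of total RNA after depletion of ribosomal RNA, so all levels are shares of a section's RNA. Fewer cells of a kind in a section and less RNA of a gene per cell cannot be told apart in these data.

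In a trout egg the cytoplasm and the dividing cells sit as a disc on top of a large yolk, so a cut across the axis passes from cells into yolk with its thin cytoplasm. The embryo starts with RNA loaded by the mother, and around the mid-blastula its own genome begins to be transcribed. In fish, the cells at the margin next to the yolk and the yolk syncytial layer, the nuclei that lie in the yolk under the disc, send Nodal signals that induce endoderm and mesoderm. BMP signals pattern the dorsoventral axis, and the vegetal yolk cytoplasm holds maternal RNAs of dorsal determinants and germ plasm.

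The total count was 3857589 to 6814716 in section B and 2815807 to 5513720 in section C, and 22296 to 23336 genes had a count in each of the 6 libraries. Levels are counts scaled to a common library total (CPM, scaled by edgeR's TMM factors), and log2 differences are section B minus section C with their standard error (SE), from edgeR's quasi-likelihood test with the replicate as a block and Benjamini-Hochberg adjusted p-values. Of the markers of embryonic cells, sox32, sox17, gata5 and otx2b were called higher in section B in at least 1 copy. The same held for klf17 and grhl3 of the enveloping layer. A copy each of sox3 and klf17 was lower there, that of klf17 not without replicate 1 or 2. Values of tbxta, foxd3 and keratin genes, also chosen as markers, are not given here. Of the markers of other tissues, the follicle cell list had no member in the table, both copies of the erythroid membrane gene epb41b were higher in B at no more than 13.67 CPM (neither without replicate 3, with adjusted p = 0.0587 and 0.188), the liver gene tfa did not pass the test, and 1 of 4 sperm and testis genes (odf2a) was higher in B. Replicate 3 stood apart in both sections: a chi-square of its counts against the other replicates, per degree of freedom, was 16.9 and 18.7 in B and 9.59 and 10.96 in C, against 4.16 between B replicates 1 and 2 and 2.7 between C replicates 1 and 2.

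Section B was higher than section C in regulators of the germ layers and in genes of protein synthesis, and lower in some maternal RNAs known from the vegetal side of the egg, among them hwa and trim36. Of 22380 genes tested, 4769 (21.3%) were higher and 2777 (12.4%) were lower in section B at an adjusted p under 0.05, 33.7% in all. The difference was larger on the side of B: 3552 genes (15.9%) were at least 2-fold higher in B and 812 (3.63%) at least 2-fold lower. All 3 B libraries lay above all 3 C libraries in 5442 genes (24.3%) and below them in 3849 (17.2%). For 265 of the genes higher in B no C library had a count. Among all genes tested, 274 had no count in C and 0 had none in B. Genes without a count in C passed the filter on low counts only through other sections, so their calls are no measure of the split. They are included in the counts above and in those of the lists. Among the 5 sections, 4170 of the genes higher in B had their highest mean in section A and 595 in section B, whereas 1441 of the genes lower in B peaked in section E, 736 in C and 589 in D. Leaving out replicate 1 gave 2980 higher and 1096 lower, and leaving out replicate 2 gave 1746 lower. The split between directions moved with the scaling: by library totals alone, 5462 were higher and 2027 lower, with the median of all genes at 0.15 in place of 0.03.

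**Figure D1:**
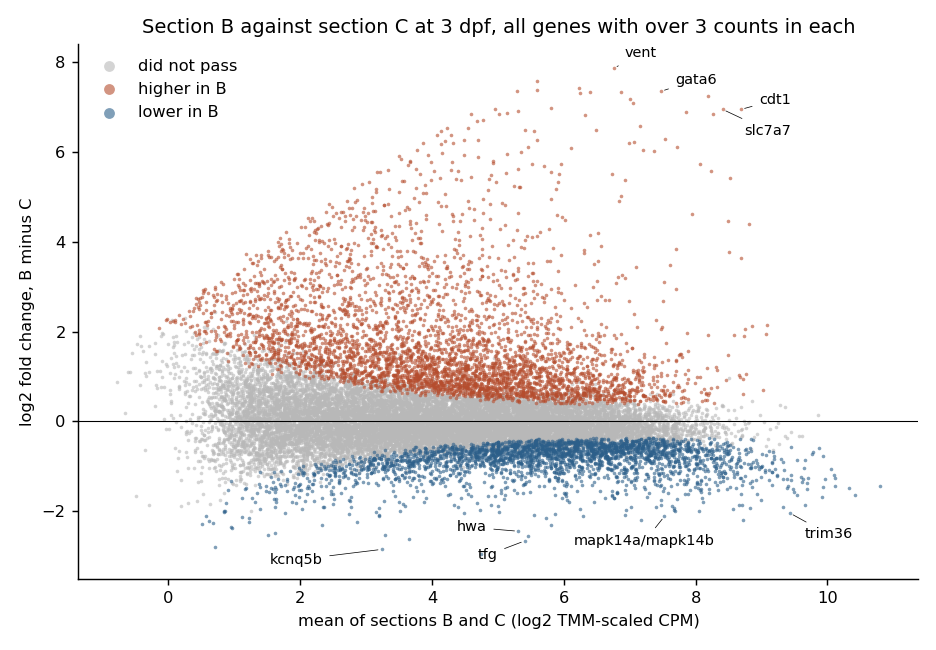
Log2 difference between section B and section C at 3 dpf (y axis) against the mean level of both sections in log2 TMM-scaled CPM (x axis), for genes with over 3 counts in each section. Each point is a gene, red where higher in B and blue where lower in B at an adjusted p under 0.05; the differences reach 7.87 (vent) upward and -2.86 (kcnq5b) downward among the named genes.

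The genes of Nodal signalling and endoderm were among those that set section B apart most. Of 32 members tested, 20 were higher in B and 2 lower. As with every list count below from the same fit, these are to be read against 21.3% higher and 12.4% lower of all genes tested. Counts from another setting are to be read against that setting's totals. Without replicate 1 these were 2980 higher and 1096 lower of 22434 genes, and without the replicate block 3769 and 1560 of 22380. The median log2 difference was 3.77, against 0.03 over all genes. The endoderm regulators sox32, an HMG-box factor without which zebrafish make no endoderm, gata5 and gata6, zinc-finger factors upstream of it, and the Nodal ligands ndr1 and ndr2 were detected in every B library and were at or near 0 in most C libraries. The copy of gata6 with the larger difference (LOC110530508) had 486, 496 and 79.1 CPM in B replicates 1, 2 and 3, against 6.74, 0.335 and 0.194 CPM in C, a log2 difference of 7.36 ± 0.67 (SE; edgeR adjusted p = 1.29e-06). Every B library lay far above every C library, and the replicate with the most in C was replicate 1.

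Copies of sox32 gave 140.1, 162 and 28.7 CPM (sox32) and 125, 157 and 24.0 CPM (LOC110535014) in section B, against 2.69, 0 and 0 CPM and 5.73, 0 and 0.388 CPM in section C. Their log2 differences were 6.99 ± 0.71 and 5.69 ± 0.74 (edgeR adjusted p = 3.22e-06 and 5.11e-05). In both, replicate 3 had the lowest B level and replicate 1 the highest C level. For gata5 the B libraries gave 52.7, 56.2 and 59.5 CPM and the C libraries no count at all, so the level in B was at least 208-fold higher, taking 3 counts over the C libraries as the floor. The B libraries of gata5 were nearly equal, and its section A levels of 40.4, 21.6 and 23.1 CPM lay below B in all 3 replicates.

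The ligand ndr1 had 61.3, 72.9 and 4.97 CPM in section B, against 1.35, 0 and 0 CPM in C (6.54 ± 0.63; edgeR adjusted p = 2.08e-06). One ndr2 copy (LOC110515815) had 47.9, 65.5 and 10.5 CPM in B, against 2.69, 0 and 0 CPM in C (5.58 ± 0.77; adjusted p = 8.41e-05). In both ligands replicate 3 of B was the low one, more than 4 times below the other replicates, yet still above all C libraries. Downstream factors followed: foxa2, a forkhead factor of endoderm and axial mesoderm, differed by 5.08, the organizer homeobox gene gsc by 4.62, sox17 by 4.22 and 2.69 in its copies, the Nodal antagonist lft1 by 4.08 and the homeobox gene mixl1 by 3.46. The call of mixl1 was lost without replicate 1 (adjusted p = 0.0545).

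The mxtx genes, homeobox factors of the zebrafish yolk syncytial layer, were also higher in section B. The B libraries had 107, 129 and 75.7 CPM of mxtx1, against 5.39, 4.69 and 5.24 CPM in C, a log2 difference of 4.29 ± 0.30 (edgeR adjusted p = 2.38e-07), with C replicates close to each other. mxtx2, already present in C at 85.2 to 105 CPM, differed by 0.88 and lost its call without replicate 1 or without replicate 2 (adjusted p = 0.075 and 0.176).

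The receptors and transducers through which Nodal acts did not show this pattern. The activin receptor genes acvr1ba/acvr1bb, acvr2aa, actriib and both copies of acvr2ba, both copies of smad2 and the co-receptor tdgf1 had log2 differences between -0.33 and 0.34 and did not pass the test. One foxh1 copy (LOC110535310), the DNA-binding partner of Smad2, had 52.1, 36.5 and 84.3 CPM in B and 38.1, 41.9 and 57.3 CPM in C (0.33; adjusted p = 0.42), whereas the other (LOC110490826) had 13.2, 9.05 and 27.8 CPM in B and 2 counts in all of C. Of the genes lower in B, the receptor copy acvr1bb (LOC110528117) had 50.6, 60.4 and 35.2 CPM in B and 89.3, 88.8 and 98 CPM in C (-0.97 ± 0.20; adjusted p = 0.00129). The maternal T-box gene eomesa differed by -0.51, a call lost without the replicate block (adjusted p = 0.528) and without any 1 replicate.

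**Figure D2:**
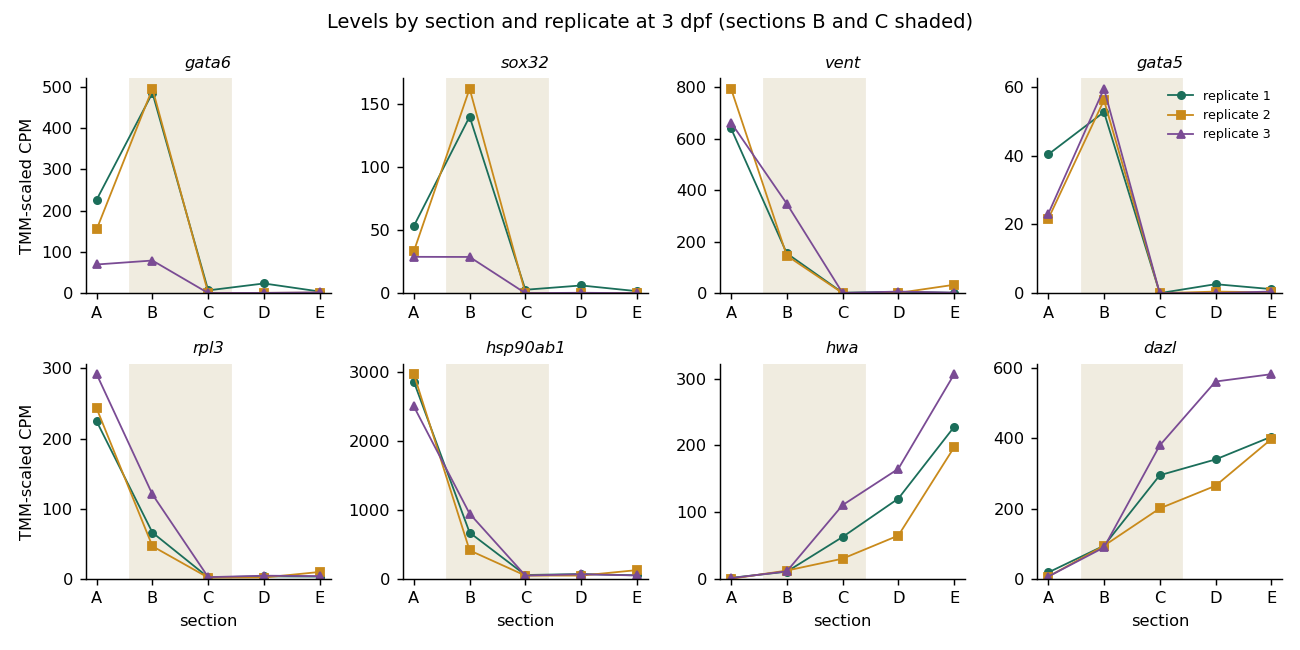
TMM-scaled CPM (y axis, from 0) of 8 genes in sections A to E (x axis) of the 3 replicates at 3 dpf, 1 line per replicate, with sections B and C shaded. gata6 and sox32 stood far above A in B in replicates 1 and 2 and near A in replicate 3, gata5 peaked in B in all 3, vent, rpl3 and hsp90ab1 were highest in A and dropped to C, and hwa and dazl were low in B and climbed toward E.

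BMP signalling genes and the ventral repressors that answer to it were higher in section B in 16 of 22 members tested, with none lower, and their median log2 difference was 4.27. The homeobox repressor vent, which keeps ventral cells from dorsal fates in zebrafish, had the largest fitted difference of the named genes with a mean of at least 10 CPM in B and more than 3 counts in C: 154, 146 and 347 CPM in B, against 1.68, 0.335 and 0.776 CPM in C (7.87 ± 0.88; edgeR adjusted p = 7.79e-06). Its relatives vox and ved differed by 7.34 and 6.27. Here replicate 3 was the highest B library, not the lowest, and section A was higher than B in every replicate, with a mean of 698 CPM for vent.

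All 4 copies of id1, a direct target of BMP signals, were higher in section B, by 7.36, 6.08, 5.41 and 4.27. The copy LOC110532286 had 62.8, 57.3 and 103 CPM in B, against 6.74, 3.35 and 2.14 CPM in C. bambia, a pseudoreceptor that damps BMP signalling, had 78.2, 64.5 and 96.5 CPM in B and 8.42, 2.68 and 3.88 CPM in C (4.04 ± 0.41; edgeR adjusted p = 3.76e-06). For these genes too B and C did not overlap and C replicate 1 was the highest of C.

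The dorsal antagonists were higher in section B as well. admp, a BMP-like ligand made on the dorsal side, had 16.9, 49.9 and 46.5 CPM in B and no count in C, at least 140-fold higher. One chrd copy (LOC110504089), a secreted BMP inhibitor, had 41.0, 25.8 and 19.8 CPM in B, against 1.35, 1.68 and 0.97 CPM in C (4.52 ± 0.54; edgeR adjusted p = 1.48e-05). The other chrd copy (LOC110507926) ranged from 0.829 to 32.8 CPM among B libraries with no count in C, and its call was lost without replicate 1 or 2 (adjusted p = 0.053 and 0.0727). The ligand bmp4 differed by only 1.08 and lost its call without replicate 1 or 3 (adjusted p = 0.0934 and 0.0585). Of the transducers, a smad5 copy (LOC110504484) differed by 0.52, a call lost without replicate 1 or 2 (adjusted p = 0.089 and 0.062), and smad1, the other smad5 copy and both copies of the protease gene bmp1a did not pass the test.

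Mesoderm T-box genes and the FGF pathway were higher in section B in 27 of 35 members, with 1 lower and a median of 4.08 (3.98 with genes of no count in C set at their lower bound). The FGF ligand fgf8a (LOC110502398) had 82.0, 124 and 80.0 CPM in B, against 2.36, 1.01 and 0.582 CPM in C (6.27 ± 0.49; edgeR adjusted p = 3.94e-07), and lay above section A in all 3 replicates. The copy fgf8a had no count in C and was at least 54.3-fold higher in B. The T-box gene tbx16, needed for trunk mesoderm in zebrafish, had 110.6, 89.1 and 29.1 CPM in B and 3 counts in all of C.

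Feedback inhibitors that FGF signalling switches on were higher with their ligands. The phosphatase dusp4 had 79.1, 140.7 and 13.3 CPM in B, against 1.68, 1.68 and 0.776 CPM in C (5.62 ± 0.70; edgeR adjusted p = 1.94e-05), and dusp6 (LOC110524405), spry2 and a spry4 copy (LOC110533351) differed by 2.49, 1.96 and 3.98. The call of that dusp6 copy was lost without replicate 1 (adjusted p = 0.0806). snai1a (LOC110494556), a zinc-finger repressor of cadherins, had 141, 127 and 76.8 CPM in B and 11.8, 11.1 and 4.66 CPM in C (3.70 ± 0.32; adjusted p = 9.67e-07). The apelin receptor aplnrb, the protocadherin pcdh8 (LOC110520622) and fgf17 (LOC110535864) differed by 6.71, 2.80 and 3.81. Copies of etv5a and etv5b, other FGF targets, and msgn1, wnt3 and cyp26a1 did not pass the test, at -0.53 to 0.22, and the sign of etv5a and of cyp26a1 changed with the processing.

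Of the anterior and neural factors, 20 of the 30 members (of 33) that passed the filter on low counts were higher in section B and 3 lower, with a median of 3.36. otx2b (LOC110529854), a homeobox gene of head tissue, had 136, 169 and 90.9 CPM in B and 1 count in all of C. The hairy-related gene her5 had 29.7, 13 and 168 CPM in B, against 0.674, 0 and 0.776 CPM in C (6.86 ± 1.19; edgeR adjusted p = 0.00035). gata2a, a zinc-finger factor of ventral ectoderm and blood, had 27.8, 19.3 and 32.5 CPM in B, against 1.68, 1.01 and 2.14 CPM in C (3.97 ± 0.35; adjusted p = 1.04e-06). B and C were apart in each, although the B libraries of her5 spread more than 10-fold.

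The genes of this list that were lower in section B are copies already present in every C library. sox3 (LOC110504954), a SoxB1 factor of neural precursors, had 176, 202 and 199 CPM in B, against 302, 315 and 366 CPM in C (-0.77 ± 0.17; edgeR adjusted p = 0.00194). The homeobox gene otx1 differed by -0.91 and its copy LOC118943942 by -0.83. In section A these 3 genes had means of 33.9, 9.94 and 8.96 CPM, below both B and C.

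Of the factors that open the fish genome for transcription, nanog did not pass the test, while 2 copies of pou5f3 and 3 copies of sox19a were higher in section B. nanog had 457, 393 and 283 CPM in B and 438, 400.0 and 340.2 CPM in C (-0.07, or 0.04 by library totals; edgeR adjusted p = 0.74). Copies of pou5f3 differed by 0.81 and 0.77, and both calls were lost without replicate 1 (adjusted p = 0.164 and 0.119), the first also without the replicate block (0.0691). The sox19a copy LOC110534223 had 133, 167 and 147 CPM in B, against 1.68, 0.67 and 0.388 CPM in C (7.43 ± 0.64; adjusted p = 9.22e-07). Over the 90 members of the list, 41 were higher and 7 lower, with a median of 0.41, and 24 were higher and 3 lower without replicate 1; the general transcription factor gene tbp (LOC110499270) and the CCAAT-binding subunit nfyba (LOC110493250) were lower in B by 0.91 and 1.15 on the log2 scale.

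**Figure D3:**
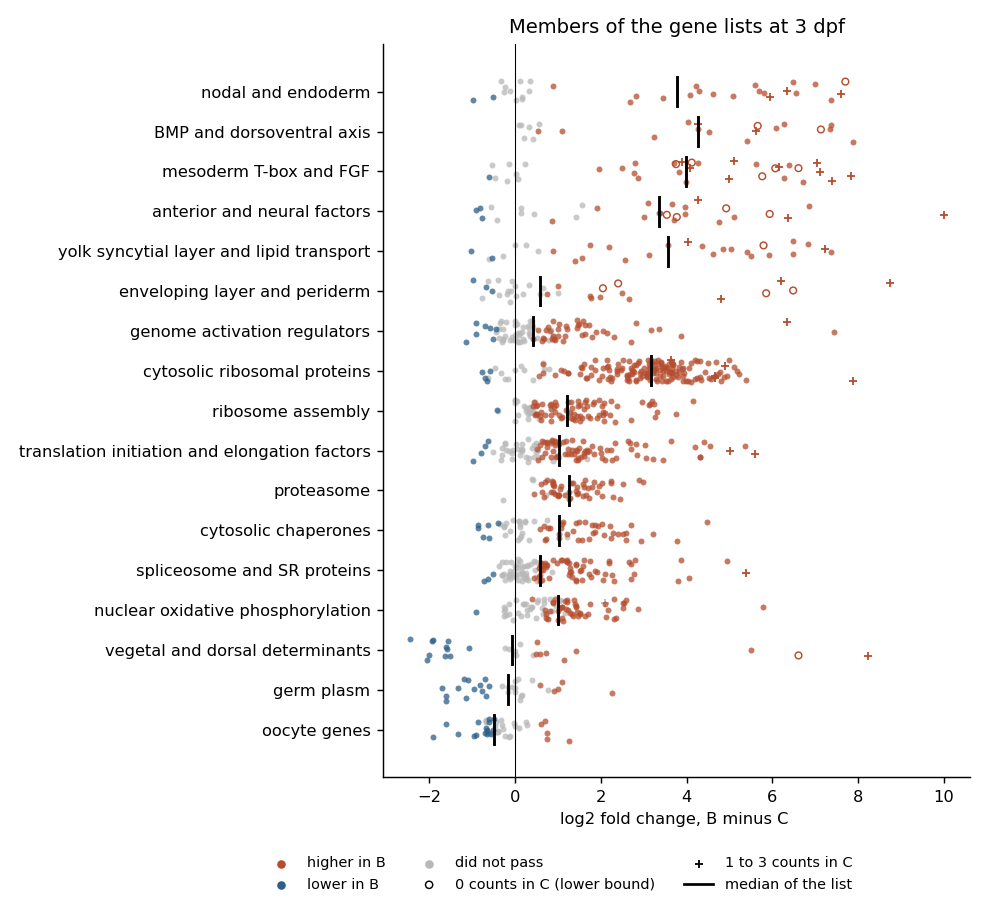
Log2 difference of section B minus section C at 3 dpf (x axis) for every tested member of 17 gene lists, 1 point per gene, coloured by call; open circles are lower bounds for genes with no count in C, crosses have 1 to 3 counts in C, and bars are list medians with those bounds. The 4 lists of patterning genes have medians of 3.36 to 4.27, and the determinant, germ plasm and oocyte lists lie at or below 0.

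Genes known from the yolk syncytial layer and from lipid transport were higher in section B in 22 of 29 members and lower in 2, with a median of 3.56. hnf1ba/hnf1bb, a homeobox factor of endodermal organs, had 221, 224 and 30.8 CPM in B, against 4.04, 0.335 and 0 CPM in C (6.82 ± 0.56; edgeR adjusted p = 6.4e-07). hnf4a, a nuclear receptor that drives apolipoprotein genes in liver and yolk cell, had 63.8, 62.9 and 1.24 CPM in B and 2 counts in all of C. In both, B replicate 3 was far below replicates 1 and 2.

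Of 6 copies of ctsla, a lysosomal protease that digests yolk, 5 were higher in section B, and the copy ctsla, at 0.26, did not pass (edgeR adjusted p = 0.279). ctsla (LOC110523893) had 933, 923 and 300.5 CPM in B, against 32.0, 11.4 and 8.15 CPM in C (5.42 ± 0.34; edgeR adjusted p = 7.96e-08). mttp, which loads lipid onto apolipoprotein B, had 36.8, 41.6 and 5.80 CPM in B and 4.38, 1.68 and 1.94 CPM in C (3.13 ± 0.43; adjusted p = 5.02e-05). The apolipoprotein gene apoe, with 56.3, 23.7 and 197 CPM in B and 1.01, 0.67 and 1.16 CPM in C, differed from these in its replicates, since B replicate 3 was the highest and section A had more in every replicate. The triglyceride synthesis gene dgat2 was lower in B, with 63.0, 96.1 and 96.7 CPM against 137, 162 and 227 CPM in C (-1.02 ± 0.26; adjusted p = 0.00699).

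The 15 named genes with the largest differences upward were vent, stm, sox19a, ga45b, id1, gata6, vox, csrnp1b, fam110d, ftr14, cdkn1d, sox32, slc7a7, cdt1 and slc7a8a, at 6.89 to 7.87. Cdt1 loads the replicative helicase onto DNA: it had 1090, 1072 and 293 CPM in B, against 20.2, 2.68 and 1.16 CPM in C (6.95 ± 0.59; edgeR adjusted p = 7.74e-07). The gene of its inhibitor geminin, gmnn (LOC110487922), had 842, 820 and 376 CPM in B and 186, 172 and 170 CPM in C (1.91 ± 0.26; adjusted p = 3.78e-05), whereas the copy gmnn (LOC110496552) differed by -0.43. Cdt1 and the first gmnn copy were higher in B than in A in all 3 replicates. The amino acid transporters slc7a7 (LOC110531642), with 899, 971 and 149 CPM in B against 21.2, 0 and 0.194 CPM in C, slc7a8a, with 596, 717 and 56.6 CPM against 12.1, 0.335 and 0 CPM, and slc43a2b (LOC110507524), with 798, 829 and 143 CPM against 26.6, 6.70 and 4.66 CPM, had their lowest B level in replicate 3 and their highest C level in replicate 1. The cyclin-dependent kinase inhibitor cdkn1d differed by 7.09 and cdkn1a by 4.64.

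In section C these 15 genes were at 1.09 to 2.36% of their B level in replicate 1, and at no more than 0.401% and 0.485% in replicates 2 and 3. C replicate 1 was the highest C library in all 15. Leaving out a replicate moved the fitted difference of each by over 1.5-fold, to as low as 5.84 (slc7a8a without replicate 2) or as high as 12.6 (csrnp1b without replicate 1), with the sign and the call kept. In 10 of the 15, B was above A in replicates 1 and 2, and in 7 in all 3 replicates. Outside these, 86 named genes at 10 CPM or more in B had 3 counts or fewer in all of C.

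Replicate 3 of section B differed from replicates 1 and 2 in a way that varied with the list. Over all 4769 genes higher in B, replicate 3 was the highest of the B libraries in 66.9% and the lowest in 18.2%. Among the 20 higher Nodal and endoderm genes it was the lowest in 17, and among the 22 yolk syncytial layer genes in 13. These lists are not separate sets, since gata6 (LOC110530508) is in both. Among the 16 BMP genes replicate 3 was the highest in 12 (75%) and among the 20 neural genes in 14 (70%), near the 66.9% of all. Section B was above section A in replicates 1 and 2 in 16 of the 20 Nodal and endoderm genes and in 500 of the 4769. It was so in none of the 16 BMP genes, a list too short to be set apart from that share. Section A shared part of the replicate 3 pattern, with 227, 155 and 69.6 CPM of gata6 (LOC110530508) in replicates 1, 2 and 3. Summed over the Nodal and endoderm list, however, A had 2599, 2465 and 2692 CPM, against 3252, 3469 and 2023 CPM in B. Over the yolk syncytial layer list A had 3586, 3295 and 2802 CPM, against 3928, 3831 and 1999 CPM in B. Without replicate 3, 3686 genes were higher in B and 2169 lower. Leaving out replicate 1 or 2 gave 2980 or 3991 higher and 1096 or 1746 lower. Each such fit has fewer libraries, so these counts do not measure the part of replicate 3.

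**Figure D4:**
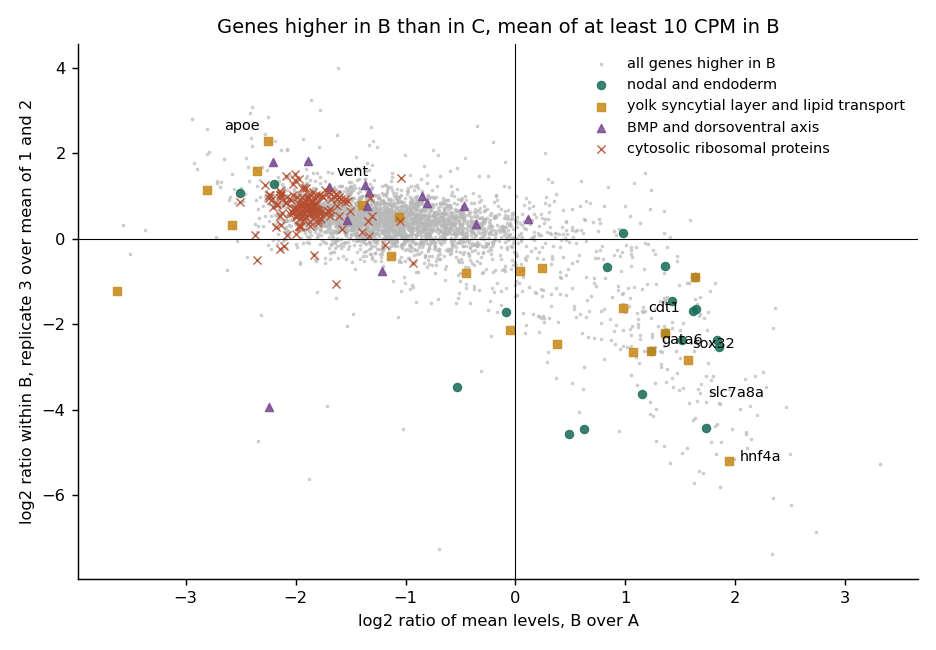
Genes higher in section B with a mean of at least 10 CPM there: log2 ratio of mean levels of B over A (x axis) against the log2 ratio within B of replicate 3 over the mean of replicates 1 and 2 (y axis), with 0.5 CPM added; B libraries enter both axes. Nodal and endoderm and yolk syncytial layer genes spread to the lower right, where B exceeds A and replicate 3 is low. Those lists share a gata6 copy. Ribosomal protein and BMP genes spread to the upper left.

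Of 33 genes of the enveloping layer, the flat outer epithelium of the blastula, 14 were higher in section B (42.4%) and 3 lower (9.09%). The median was 0.58, and the share of lower ones was near the 12.4% of all genes. Without the replicate block 1 was lower. The transcription factor grhl3 had 10.04, 9.52 and 8.98 CPM in B, against 3.03, 4.02 and 0.97 CPM in C (1.97 ± 0.41; edgeR adjusted p = 0.00152), and the tight junction gene cldne had 20.7, 13 and 13.1 CPM in B and no count in C, at least 57.8-fold higher. Both had higher levels in section A than in B or C, with 93.7 to 114 CPM of grhl3 and 147 to 202 CPM of cldne. The desmosomal gene dspa differed by 0.99, and the adhesion genes cdh1 and epcam by -0.16 and -0.08, without passing the test, epcam lying at 0.03 by library totals.

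Genes of the ribosome were higher in section B almost without exception. Of 159 genes that carry the name of a cytosolic ribosomal protein, 155 were higher in section B, none lower, and the median log2 difference was 3.25. rpl3 (LOC110538594) had 65.9, 46.4 and 120.3 CPM in B, against 2.02, 1.68 and 2.33 CPM in C (5.23 ± 0.40; edgeR adjusted p = 3.73e-07). rps3 (LOC110507642) had 57.1, 43.2 and 101 CPM in B and 4.04, 3.35 and 5.43 CPM in C (3.93 ± 0.30; adjusted p = 3.73e-07). The groups were apart in both, and B replicate 3 was the highest, as in 144 of the list's 159 higher members, other name matches included. In no member was B above A in every replicate.

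Ribosome assembly factors followed with smaller differences. Of 94 members 71 were higher in section B, 1 lower and the median was 1.21; utp20, a part of the small-subunit processome, had 165, 99.4 and 215 CPM in B, against 13.5, 8.04 and 6.40 CPM in C (4.16 ± 0.37; edgeR adjusted p = 1.16e-06). The ATPase mdn1 (LOC110529504) and tsr1 differed by 3.30 and 3.27. A copy of the nucleolin gene, ncl (LOC110508971), was the lower one, at -0.42, and lost its call in 6 of 9 alternatives, while the copy ncl differed by 2.05. Small nucleolar RNAs, which guide the modification of ribosomal RNA, were higher in B in 64 of the 66 members, of 72 in all, that passed the filter on low counts. Of the 66, 36 had no count in C and passed through the other sections, so the count describes these members and is no measure of the list. In a fit of sections B and C only, 21 were higher. Summed over the list, the B libraries had 215, 161 and 277 CPM, against 8.08, 3.02 and 7.96 CPM in C.

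Translation factors were higher in section B in 73 of 109 members, with 4 lower and a median of 1.02. The elongation factor eef1a1b/eef1a1l2 (LOC110496143) had 849, 684 and 1047 CPM in B, against 49.2, 35.5 and 38.6 CPM in C (4.39 ± 0.41; edgeR adjusted p = 1.7e-06). eef2b (LOC110530688) differed by 5.37. The 4 lower members are eif4ea and the 3 copies of eif4e3, all cap-binding proteins, at -0.63 to -0.98, and each lost its call without replicate 1. Of 29 aminoacyl tRNA synthetases, 18 were higher and none lower, with a median of 0.74, and 11 were higher without replicate 1.

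Proteasome subunits were higher in section B in 50 of 54 members and lower in none, with a median of 1.26. psma5 had 91.4, 76.4 and 151 CPM in B, against 12.8, 17.4 and 13.4 CPM in C (2.88 ± 0.29; edgeR adjusted p = 3.34e-06). Cytosolic chaperones were higher in 38 of 65, with 6 lower (2 without replicate 1) and a median of 1.03. hsp90ab1 had 672, 413 and 947 CPM in B, against 54.9, 46.6 and 46.8 CPM in C (3.78 ± 0.36; adjusted p = 2.04e-06), and the chaperonin subunit cct3 (LOC110513517) differed by 2.94. Of 113 spliceosome and SR protein genes 61 were higher and 3 lower, with a median of 0.59; the helicase gene snrnp200 (LOC110525610) differed by 4.95 and the splicing regulator srsf6b by 4.04.

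Nuclear genes of oxidative phosphorylation were higher in section B in 47 of the 84 (of 87) that passed the filter and lower in 1, with a median of 1.00. cycsb, cytochrome c, had 33.5, 19.96 and 40.3 CPM in B, against 1.01, 0 and 0.582 CPM in C (5.78 ± 0.67; edgeR adjusted p = 1.13e-05), and the ATP synthase subunit atp5fa1 (LOC110525946) differed by 2.86. sdhc, a subunit of succinate dehydrogenase, was the lower one, with 34.1, 35.5 and 21.0 CPM in B and 59.6, 67.7 and 41.7 CPM in C (-0.91 ± 0.19; adjusted p = 0.00162). Mitochondrial ribosomal proteins were less one-sided, with 23 of 68 higher (33.8%), 7 lower (10.3%, near the 12.4% of all genes) and a median of 0.42. Leaving out a replicate brought the higher ones to between 8 and 14.

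Of the DNA replication list, cdt1 and gmnn included, 23 of 55 members were higher in section B and 3 lower, with a median of 0.33, and 15 were higher without replicate 3. The helicase subunit mcm4 differed by 1.87. Cyclins and mitotic genes had 18 of 67 higher (26.9%) and 9 lower (13.4%; 15 by DESeq2, none without replicate 1), with a median of 0.00. These shares lay near the 21.3% and 12.4% of all genes. A ccna2 copy (LOC110505148) had 534, 530.2 and 618 CPM in B and 878, 737 and 893 CPM in C (-0.58 ± 0.15; edgeR adjusted p = 0.00666), a call lost without replicate 1 or 2. The 3 ccnb1 copies did not pass the test.

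In the other direction, a list built on vegetal and dorsal determinants of zebrafish and frogs had 11 of 26 members lower in section B (42.3%). Another 9 were higher (34.6%), and the median was -0.07. The list also holds copies of kif5b genes, macf1a, tob1a, ybx1 and ctnnb1, and slbp2, which is given below with the oocyte genes. The higher members were 3 without replicate 1 and 5 without replicate 3. hwa, the maternal membrane protein that stabilises beta-catenin in zebrafish, had 10.7, 12.3 and 11.2 CPM in B, against 62.6, 30.2 and 110.4 CPM in C (-2.45 ± 0.30; edgeR adjusted p = 1.51e-05). The ubiquitin ligase trim36 (LOC110525254) had 247, 253 and 241 CPM in B, against 1076, 545 and 1782 CPM in C (-2.05 ± 0.30; adjusted p = 8.87e-05). The B libraries of both were nearly equal, while the C libraries spread more than 3-fold and all lay above B. Section E had 4102 CPM of trim36 and 244 CPM of hwa on average, above C.

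Other determinants lower in section B differed among themselves in how their C libraries spread. The scaffold gene grip2a/grip2b had 104, 109 and 82.7 CPM in B, against 389, 211 and 696 CPM in C (-2.0 ± 0.35; edgeR adjusted p = 0.000417). grip2b had 44.6, 42 and 26.8 CPM in B, against 119, 113 and 94.1 CPM in C (-1.55 ± 0.17; adjusted p = 5.92e-06). sybu, a kinesin linker needed to move dorsal determinants in zebrafish, differed by -1.93 and -1.63 in its copies, mapkapk2a by -1.58 and -1.07 and trim36 (LOC110535019) by -1.51. In 10 of the 11 (90.9%) C replicate 3 was the highest of C and in 9 (81.8%) C replicate 2 the lowest. Over all 2777 genes lower in B these shares were 65.4% and 47.3%, so the order is in part that of the libraries at large. The copy hwa (LOC110509564), whose sections overlapped, differed by -1.60 and lost its call by DESeq2 (adjusted p = 0.0703), without the replicate block (0.0554) and without replicate 1 (0.0671).

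Other members of that list were higher in section B. The Wnt ligand wnt11f2 had 271, 298 and 56.2 CPM in B, against 7.41, 3.69 and 1.94 CPM in C (5.51 ± 0.56; edgeR adjusted p = 3.26e-06), above section A in replicates 1 and 2. wnt8a, a Wnt ligand of the margin, had 15.5, 21.8 and 41.7 CPM in B and no count in C, at least 97.5-fold higher. gdf3, the Vg1 partner of Nodal ligands, had 54.2, 72.7 and 24.6 CPM in B and 14.5, 12.7 and 29.5 CPM in C, with C above B in replicate 3 (1.42 ± 0.37; adjusted p = 0.00713), and its call was lost without replicate 1 or 2 (adjusted p = 0.138 and 0.153). The beta-catenin genes ctnnb1 (LOC110512888 and LOC110535244) each differed by 0.50, and both calls were lost without replicate 1 or 3, that of LOC110512888 without replicate 2 too.

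Germ plasm genes were lower in section B in 13 of 31 members (41.9%) and higher in 5 (16.1%; 3 without replicate 1 or 3), with a median of -0.15. The share of higher ones was near the 21.3% of all genes, and that of lower ones above their 12.4%. dazl, an RNA-binding protein of germ cells, had 94.1, 94 and 89.2 CPM in B, against 295, 200.3 and 380 CPM in C (-1.60 ± 0.28; edgeR adjusted p = 0.000438). gra had 52.9, 50.1 and 37.6 CPM in B, against 151, 121 and 178 CPM in C (-1.70 ± 0.19; adjusted p = 7.42e-06). buc, which organises the germ plasm of the zebrafish oocyte, differed by -1.33, -0.70 and -0.69 in its 3 copies (the last lost without the replicate block or without replicate 1 or 2), the RNA-binding celf1 by -1.61 and -1.10, and rbpms2a by -1.14. B and C did not overlap in dazl or gra.

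The helicase ddx4 (Vasa) had 188, 217 and 155 CPM in section B, against 292, 318 and 368 CPM in C (-0.83 ± 0.19; edgeR adjusted p = 0.00302), and dnd1 differed by -0.78, a call lost without replicate 1 or 2. The Piwi genes piwil1 and piwil2 both differed by 0.01 and did not pass the test, with the sign turned by another scaling. The higher members were the Tudor genes tdrd6, tdrkh and tdrd15 and copies of igf2bp3: tdrd6 had 65.5, 44.1 and 121 CPM in B, against 17.5, 14.4 and 14.6 CPM in C (2.27 ± 0.27; adjusted p = 1.28e-05), with a section A mean of 238 CPM. The calls of tdrd15 and igf2bp3 (LOC110496587) were lost without replicate 1 or 3.

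Genes of the oocyte were lower in section B in 16 of 42 members (38.1%) and higher in 5 (11.9%), with a median of -0.48. Of all genes 12.4% were lower and 21.3% higher. The lower oocyte genes were 6 without replicate 1 and 9 without the replicate block, where 1096 and 1560 of all genes were lower in place of 2777. The stem-loop binding protein slbp2 had 228, 244 and 288 CPM in B, against 860.2, 589 and 1631 CPM in C (-1.91 ± 0.38; edgeR adjusted p = 0.00106). The egg coat gene zp3d.1 differed by -0.85 and the oocyte growth factor gene bmp15 by -0.66, with the call of bmp15 lost without replicate 1 (adjusted p = 0.0501). pabpc1l, the poly(A)-binding protein of the oocyte, went the other way, with 51.5, 44.3 and 67.1 CPM in B and 19.2, 26.1 and 23.3 CPM in C (1.25 ± 0.18; adjusted p = 6.14e-05).

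Of the genes that clear maternal RNA, 36 of 108 (33.3%) were higher in section B and 13 lower, the share of lower ones being near the 12.4% of all genes, with a median of 0.23; without replicate 1, 19 were higher and 5 lower. ago2 (LOC110488009), the slicing Argonaute, had 126, 60.1 and 157 CPM in B, against 4.38, 2.68 and 2.52 CPM in C (5.18 ± 0.45; edgeR adjusted p = 9.49e-07). The deadenylase scaffold cnot1 differed by 1.75. pan3 (LOC110489660), of another deadenylase, had 240.1, 237 and 137 CPM in B, against 538, 534 and 658 CPM in C (-1.50 ± 0.21; adjusted p = 6.14e-05), and the AU-rich element binding gene zfp36l2 (LOC110502337) differed by -1.12.

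The 15 named genes with the largest differences downward were kcnq5b, tfg, hwa, rbm25a/rbm25b, abhd17aa, tbc1d2b, mapk14a/mapk14b, fam210b, galnt1, ZNF850, tbk1, itsn2b, trim36, ENSDARG00000111583 and cracr2b, at -2.0 to -2.86. tfg, a protein of transport from the endoplasmic reticulum, had 16.3, 9.52 and 8.01 CPM in B, against 94.3, 29.1 and 97.0 CPM in C (-2.67 ± 0.34; edgeR adjusted p = 2.35e-05). The stress kinase p38, mapk14a/mapk14b, had 65.5, 70.6 and 64.4 CPM in B, against 314, 190.3 and 402 CPM in C (-2.12 ± 0.23; adjusted p = 5.71e-06), and a mean of 813 CPM in E. The potassium channel gene kcnq5b (LOC110496602) had 1.05, 0 and 4.97 CPM in B and 5.73, 0.67 and 44.1 CPM in C, groups that overlap, and its call was lost without the replicate block (adjusted p = 0.116). Those of ZNF850 without the block (0.0539) and of cracr2b without replicate 1 (0.0556) were lost too.

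Of 49 mitochondrial carriers, 12 were higher in section B (24.5%) and 13 lower (26.5%), with 7 lower without replicate 1. The higher share lay near the 21.3% of all genes, and the lower share was above their 12.4%. The carrier gene slc25a37, which imports iron, had 347, 389 and 345 CPM in B, against 794, 797 and 949 CPM in C (-1.23 ± 0.23; edgeR adjusted p = 0.000803). The calcium-regulated ATP-Mg carrier slc25a25a (LOC110525499) differed by -1.51. Motor proteins, with 33 of 109 higher (30.3%) and 19 lower (17.4%), and the endoplasmic reticulum and secretory list lay near the 21.3% and 12.4% of all genes. Motor proteins had a median of 0.22 and 17 higher without replicate 1. The secretory list had 25 of 103 higher (24.3%) and 17 lower (16.5%), with a median of 0.07, the lower ones coming to 2 without replicate 1.

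The patterning lists had similar median levels in sections B and C at 0 hpf, most of them low, and were far apart at 3 dpf. At 0 hpf these medians were 4.33 and 4.82 CPM in B and C for Nodal and endoderm, and 0.858 and 1.08 CPM for BMP. They were 0.573 and 0.645 CPM for mesoderm, and 0.833 and 0.836 CPM for anterior and neural factors. At the lowest of these levels the added 0.5 CPM pulls a ratio toward even, so an even spread of the RNA is not shown. Some determinants had less in B already at 0 hpf: means were 2.84 CPM in B and 11.8 CPM in C for hwa, and 78.7 CPM in B and 259 CPM in C for trim36 (LOC110525254). Their change by 3 dpf did not pass the test (-0.37 and -0.36; edgeR adjusted p = 0.809 and 0.727). Median log2 ratios of B over C (with 0.5 CPM added to each) at 0 hpf, 1 dpf and 3 dpf were 0.00, 0.36 and 3.53 for the Nodal and endoderm list, -0.05, 0.32 and 3.89 for the BMP list, and 0.13, 1.45 and 2.91 for the ribosomal protein list. The proteasome list had 0.21, 1.22 and 1.18 and the oxidative phosphorylation list 0.15, 1.16 and 0.82, so their medians at 1 dpf were as high as at 3 dpf. The determinant list had -0.33, -0.29 and -0.11 and the germ plasm list -0.15, -0.69 and -0.21, and the median of all genes was between -0.01 and 0 at each stage.

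**Figure D5:**
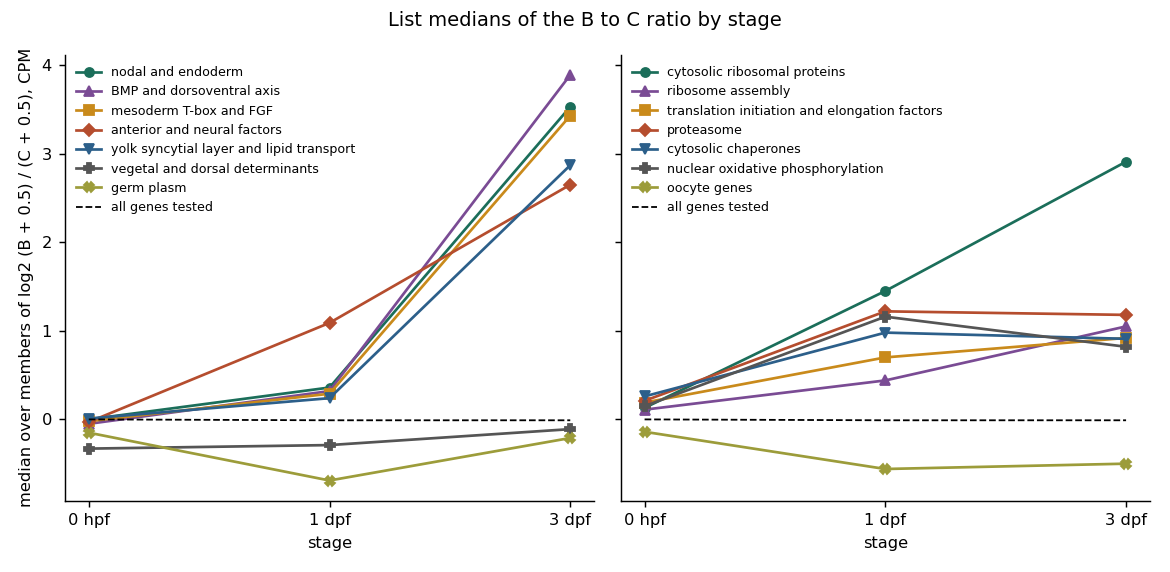
Median over the members of each list of the log2 ratio of section B over section C (y axis, 0.5 CPM added to both, means of 3 replicates) at 0 hpf, 1 dpf and 3 dpf (x axis), with all genes tested as a dashed line. Medians of the patterning lists climb between 1 dpf and 3 dpf, to 2.65 or more, while the proteasome, chaperone and oxidative phosphorylation lists are already near 1 at 1 dpf. The anterior and neural list is at 1.09 at 1 dpf, and no member of it passed the test of the change from 1 dpf.

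The change of the B to C step between stages was tested gene by gene in a fit of the 45 libraries of 3 stages, whose scaled levels differ slightly from those above. Between 1 dpf and 3 dpf, 1831 of 23368 genes (7.84%) moved toward B and 665 (2.85%) toward C; by library totals alone the counts were 1347 and 1004. Between 0 hpf and 3 dpf, 2313 (9.9%) moved toward B and 738 (3.16%) toward C, with 2890 and 304 by library totals alone. Without the replicate block the counts were 535 and 164 against 1 dpf, and 1163 and 140 against 0 hpf. Without replicate 1 those toward C against 1 dpf were 375, and without replicate 3 those toward C against 0 hpf were 369.

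Among ribosomal protein list members, 150 of 177 moved toward B and 1 toward C between 0 hpf and 3 dpf, and 70 toward B between 1 dpf and 3 dpf, and among ribosome assembly members 62 and 35. Proteasome members moved toward B in 32 of 54 against 0 hpf and in 1 against 1 dpf. Of the patterning genes fewer passed: 9 Nodal and endoderm, 7 BMP and 12 mesoderm members moved toward B against 0 hpf and none toward C, and of the anterior and neural factors 9 moved toward B and 3 toward C. Those 3 are sox3 (LOC110504954) and both otx1 copies. From 0 hpf, the median fitted changes of these 4 lists were 3.55, 4.46, 4.64 and 2.87, against 2.95 for the ribosomal protein list. From 1 dpf, 8 Nodal and endoderm, 3 BMP and 10 mesoderm members moved toward B, and no anterior or neural factor did. None of these moved toward C. The median change of the anterior and neural list from 1 dpf was 0.80. Members near 0 at 0 hpf had large errors: vent moved by 8.57 ± 4.71 and admp by 12.5 ± 8.17 without passing. The lower counts of patterning genes are therefore no measure of a smaller change. ctsla (LOC110523893) moved by 5.22 against 0 hpf and by 4.12 against 1 dpf (edgeR adjusted p = 9.44e-10 and 1.4e-07), with means of 28.5 CPM in B and 11.5 CPM in C at 1 dpf.

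Of 26 determinants and 31 germ plasm genes, 11 in each list moved toward B relative to 1 dpf and 2 in each toward C. Over all genes 7.84% moved toward B and 2.85% toward C. The determinants that moved toward B included wnt11f2, wnt8a, gdf3 and ctnnb1 (LOC110512888), which were higher in B at 3 dpf. At 3 dpf trim36 (LOC110535019) had 397, 441 and 331 CPM in B and 1105, 979 and 1379 CPM in C in the fit of 3 stages, against 98.4, 194 and 110.4 CPM in B and 835, 1038 and 1156 CPM in C at 1 dpf. B lay below C at both stages, and the difference moved toward B by 1.37 ± 0.32 (SE; edgeR adjusted p = 0.00443). slbp2 moved by 1.49 (adjusted p = 0.0341). It had 243, 264 and 290 CPM in B and 949, 658 and 1715 CPM in C at 3 dpf, against 38.8, 99.0 and 73.7 CPM in B and 443, 949 and 892 CPM in C at 1 dpf. hwa, at 0.41, did not pass (adjusted p = 0.763).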

How the data were processed

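RNA of each embryo section was sequenced from 30 ng of total RNA in a strand-specific library after depletion of ribosomal RNA, per the labels' protocols. The authors deposited whole-number read counts per gene, made with fastp 0.23.4, STAR 2.7.11 and HTSeq 2.0.4 per the submitters' processing notes. Neither the genome build nor the strand setting is given in the sources used here. Reads of near-identical gene copies and of overlapping genes may be shared, so values of copies are uncertain. The table holds 55 of the 60 labelled libraries, and 5 libraries of 1 hpf were not analysed here. Of 23471 genes, 23470 matched the RefSeq gene table of USDA_OmykA_1.1; 6164 were named by a trout symbol, 6868 by a zebrafish ortholog and 10439 had no name.

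B and C were compared by edgeR 4.0.16, run in R 4.3.3 (filterByExpr with a minimum of 10 counts, TMM scaling, quasi-likelihood F-test, Benjamini-Hochberg adjustment, threshold 0.05). The fit of 15 libraries of 3 dpf had section and replicate as terms, with B minus C as the contrast; stages were compared by interaction contrasts in a fit of 45 libraries with a block for each replicate of each stage. Sections of 1 number are slices of 1 biological replicate per the labels, and deviations from the section means of B and C correlated at 0.46, 0.21 and 0.56 in replicates 1, 2 and 3 over 14157 genes; B 1 with C 2 gave 0.34 and B 2 with C 1 gave 0.28, so replicates 1 and 2 were not set apart by this. Since no label says whether the replicates came from different parents, a p-value reflects variation among these libraries alone, part of it possibly technical. The fits were tested on simulated data with 200 changed genes.

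The standard error is the absolute log2 difference over the square root of F. A fold against no count in C is a lower bound from 3 counts over the C libraries, which covers counting error only; with 1 to 3 counts, levels alone are given. Named genes were called genes with a name, a mean of at least 10 CPM in the higher section, at least 4 counts in the lower section and 1 sign in all 3 pairs: the 15 highest and 15 lowest, and up to 5 per direction with 3 counts or fewer. For interactions, the 6 highest and 6 lowest against 1 dpf and the 4 and 4 against 0 hpf needed the same level, 4 counts in the lower section at each stage and a mean of the replicate ratios with the sign of the fit, not 1 sign in all pairs. Of each gene list, up to 4 called members per direction with the smallest adjusted p were taken, whatever their pairs. Members named without passing the test, and relatives of these, were chosen after their values were seen. The comparison and the gene lists were chosen with earlier results of these data known. Alternatives were RLE size factors, library totals, no filter on low counts, DESeq2 1.42.0, no replicate block, sections B and C only, and leaving out each replicate.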

Additional observations from a re-analysis of the deposited data

Results flagged for a closer look

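The difference between sections B and C changed between stages by a test of the interaction itself. In 1831 genes it moved toward B and in 665 toward C between 1 dpf and 3 dpf, and in 2313 toward B and 738 toward C between 0 hpf and 3 dpf. Each gene below passed that test (edgeR's quasi-likelihood test), and values are log2 differences of the step at 3 dpf minus the step at the earlier stage.

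The genes named for their move toward B relative to 1 dpf had at most 5.56 CPM in any library of B or C at 1 dpf. tbxa2r, a thromboxane receptor, moved by 7.28 (adjusted p = 1.2e-05), with 29.1, 42 and 8.89 CPM in B and 0.743, 0 and 0.408 CPM in C at 3 dpf, against at most 0.485 CPM in B and 1.79 CPM in C at 1 dpf. camsap2a, which caps microtubule minus ends, moved by 6.76 (adjusted p = 8e-05), and the BMP target id1 (LOC110494548) by 6.17 (adjusted p = 6.69e-05). nudt4b (LOC110499949) moved by 5.96, the Wnt effector lef1 by 5.84 and the antiviral helicase dhx58 by 5.59. Those 3 calls were lost without the replicate block (edgeR adjusted p = 0.0658, 0.0731 and 0.0591). The call of lef1 was also lost without replicate 1 or 2 (0.0738 and 0.105). That of dhx58 was also lost from sections B and C only (0.0588) and without replicate 2 (0.0697). At 3 dpf lef1 had 13.8, 24.9 and 0.556 CPM in B and 0.743, 0.374 and 1.63 CPM in C, with B below C in replicate 3.

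Toward C, several genes had been higher in B at 1 dpf and were nearly even at 3 dpf. ndfip2, an adaptor of ubiquitin ligases, moved by -2.45 (adjusted p = 2.77e-05), with 20.02, 16.3 and 21.0 CPM in B and 19.3, 11.2 and 21.2 CPM in C at 3 dpf, against 82.5, 68.6 and 75.5 CPM in B and 16.6, 8.74 and 13.4 CPM in C at 1 dpf. B fell to the level of C in it, and the same shape was seen in rab33ba (LOC110505008), at -2.12, the transcriptional repressor spen (LOC110532368), at -2.08, and the ubiquitin ligase gene cnot4a, at -2.0. btr12, a TRIM gene, moved by -1.97 (adjusted p = 2.42e-06), with 85.7, 73.0 and 139 CPM in B and 49.4, 40.4 and 66.7 CPM in C at 3 dpf, against 355, 314 and 372 CPM in B and 53.9, 38.8 and 48.8 CPM in C at 1 dpf. vsig10l moved by -1.99 relative to 1 dpf and by -1.84 relative to 0 hpf, and neither call held without the replicate block (adjusted p = 0.0675 and 0.0868).

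Relative to 0 hpf, sox19a (LOC110534223) moved by 7.46, the kinase inhibitor cdkn1cb by 7.43, cdt1 by 7.12 (adjusted p = 6.17e-09) and id1 by 6.91. The call of sox19a was lost without the replicate block (adjusted p = 0.204). cdt1 had 1159, 1162 and 294 CPM in B and 22.3, 2.99 and 1.23 CPM in C at 3 dpf, against 3.51, 3.37 and 5.29 CPM in B and 3.68, 1.87 and 8.84 CPM in C at 0 hpf, where the sections overlapped. Toward C, the collagen receptor ddr1 moved by -2.08 (adjusted p = 3.26e-06), with 22.7, 19.9 and 27.5 CPM in B and 61.3, 62.5 and 94.3 CPM in C at 3 dpf, against 24.2, 15.7 and 24.3 CPM in B and 17.2, 15.9 and 14.9 CPM in C at 0 hpf. B overlapped between the stages and C did not. The repressor bach1b (LOC110533253) moved by -2.06 and wdr41 by -1.76, and both calls were lost without the block (adjusted p = 0.0567 and 0.255) and without replicate 3 (0.065 and 0.105).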

How the results depend on the processing

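Leaving out a replicate gave between 2980 and 3991 genes higher in B and between 1096 and 2169 lower; the changes against 1 dpf then numbered 1291 to 1991 toward B and 375 to 791 toward C, and those against 0 hpf 1601 to 2503 and 369 to 983. Without the replicate block 1560 genes were lower in B, 535 and 164 moved toward B and toward C against 1 dpf, and 1163 and 140 against 0 hpf. By library totals 1004 moved toward C against 1 dpf and 304 against 0 hpf. Under the other settings these counts stayed within 1.5 times, 4370 to 4742 higher and 3009 to 3023 lower by RLE, without the filter, by DESeq2 or from sections B and C alone. Of the 327 named-gene values, calls lost were 0 by RLE, 0 without the filter, 1 by DESeq2, 12 by library totals, 36 without the replicate block, 3 of 323 from sections B and C alone, and 52, 27 and 21 without replicates 1, 2 and 3. Signs turned only in genes that did not pass: epcam (0.028) and nanog (0.035) by library totals, and, by RLE, without the filter and by DESeq2, etv5a (-0.001, -0.004 and -0.001), piwil1 (-0.017, -0.019 and -0.016) and piwil2 (-0.017, -0.019 and -0.013). Leaving out a replicate gave -0.061 to 0.458 for cyp26a1, -0.031 to 0.069 for etv5a, -0.125 to 0.003 for nanog, -0.083 to 0.067 for piwil1 and -0.081 to 0.069 for piwil2. The cause was not tested. Of 74 list counts, 32 moved by over 1.5 times without replicate 1 and 19 without the block. Depth limits genes near 0 in C, where 3 counts over the C libraries equal 0.27 CPM.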

Other observations

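Genes that share a trout symbol or a zebrafish ortholog name, here called copies, did not always go the same way across the cut. How these copies arose was not tested. Of 2794 names with at least 2 tested copies, 962 had at least 2 called: in 602 all called copies were higher in B, in 262 all were lower, and in 98 they went in opposite directions. Of the axin1 copies, scaffolds of the beta-catenin destruction complex, LOC110485340 had 13.2, 9.52 and 15.5 CPM in B against 36.7, 31.8 and 72.4 CPM in C (-1.86; edgeR adjusted p = 8.44e-06), and LOC110512102 differed by -1.63. LOC110538248 had 36.6, 30.9 and 39.5 CPM in B against 10.4, 10.7 and 15.5 CPM in C (1.53; adjusted p = 7.27e-05). A camsap2a pair was split too: camsap2a had 186, 152 and 29.0 CPM in B against 5.05, 0.335 and 0.97 CPM in C (5.73), and LOC110528753 had 94.1, 85 and 46.3 CPM in B against 170.4, 173 and 158 CPM in C (-1.25). These genes were chosen after their values were seen.

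The remaining lists are to be read against 21.3% higher and 12.4% lower of all genes tested, and the shares of several lay near these. Of 67 adhesion and junction genes tested 24 were higher in B (35.8%) and 9 lower (13.4%), the desmosomal cadherin dsc2l at 3.22 and the plakophilin pkp2 at -1.02. Of 45 matrix and metalloprotease genes 17 were higher and 5 lower, with the metalloprotease mmp15b (LOC110526932) at 4.12 and the collagen col12a1b at -1.25. Of 42 TRIM genes 13 were higher (31.0%) and 6 lower (14.3%), from ftr14 at 7.18 to trim36 at -2.05, and of 181 zinc-finger genes 52 (28.7%) and 17 (9.39%), from znf503 (LOC110499470) at 5.60 to ZNF850 at -2.07. Of 33 amino acid transporters 8 were higher and 5 lower, slc7a6 at -1.25. Histone genes were higher in 4 of 12 and lower in none: both copies of macroh2a2, a histone variant of repressed chromatin, differed by 3.77 and 3.48, h2ax1 by 2.04 and h3f3d by 0.76.

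Of 439 long noncoding RNAs tested, 80 were higher in B (18.2%) and 62 lower (14.1%), near the shares of all genes, and their median was -0.27. LOC110489055 had 138, 141 and 91.3 CPM in B against 8.76, 4.02 and 3.88 CPM in C (4.48 ± 0.29; edgeR adjusted p = 9.16e-08). LOC118944494 had 8.79, 14.6 and 10.9 CPM in B against 34, 31.1 and 44.8 CPM in C (-1.67 ± 0.27; adjusted p = 0.000168).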
